A study of Mus musculus with 6 samples.

Results

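The genes described here are 54 mouse genes of the lysosome, out of 57010 genes in the deposited table. They were listed by name, for their known roles: 10 cathepsins, 25 other hydrolases and their activators, 8 membrane proteins, the transcription factor Tfeb and 10 subunits of the vacuolar proton pump. The list was drawn up with earlier results of these data known. All 54 were found in the table and all 54 passed the filter on low counts. RNA was sequenced from CD45+CD90.2- cells (immune cells without T cells) purified from hearts of mice with the genotype Ova DTG, which express ovalbumin restricted to the heart. The labels do not name the promoter that drives ovalbumin. All mice had received OTI cells, CD8 T cells that recognise ovalbumin. In the 3 libraries labelled ICI, for immune checkpoint inhibitor, the mice were also given 200 µg of an antibody to CTLA-4 and 200 µg of an antibody to PD-1. In the 3 libraries labelled isotype, they were given isotype control antibody, and the titles of both groups name myocarditis. The question addressed is which lysosomal transcripts differ, in cells of the heart other than T cells, between checkpoint blockade and control antibody. The labels call the libraries biological replicates without saying whether animals were pooled, and every direction below rests on the labels.

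Lysosomes are acidic organelles in which hydrolases break down proteins, glycans and lipids brought in by endocytosis, phagocytosis and autophagy. The vacuolar proton pump acidifies them. Its V1 sector, in the cytosol, hydrolyses ATP, and its V0 sector, in the membrane, carries the protons. Macrophages are rich in these organelles, and many lysosomal genes carry a promoter element built on CACGTG to which TFEB and its relatives bind.

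Total counts ranged from 21528274 to 30736316 per library. Ptprc, which encodes CD45, measured 1175, 1341 and 1126 normalized CPM (a gene's counts relative to the total of its library, scaled by TMM factors) in ICI replicates 1 to 3 and 1028, 1112 and 1119 in isotype replicates 1 to 3, and Thy1, which encodes CD90, had 0 to 2 counts per library. Markers of several cell types differed between the groups. The summed level of 10 resident macrophage markers was 8796 to 10399 normalized CPM in the ICI libraries and 275.5 to 354.5 in the isotype libraries, and all 10 were higher. The summed level of 10 monocyte markers was 1410 to 1602 against 5094 to 10885, and 7 of the 10 were lower. The sum of 10 general macrophage markers was closer, at 12215 to 14491 against 10237 to 11877. These markers went in both directions, with 4 higher, 3 lower and log2 fold changes from -1.55 to 0.92. B cell markers, all 10 higher, summed to 848 to 1659 against 58.9 to 103, and fibroblast markers, 9 of 10 higher, to 66.2 to 200.3 against 12 to 16.3. The 12 genes known to respond to tissue dissociation were all higher and summed to 17438 to 22400 against 5739 to 5884. Dendritic cell markers, 7 of 10 higher and 3 lower, summed to 428 to 571 against 161 to 229, and natural killer cell markers, 9 of 10 higher, to 107 to 160.4 against 52.2 to 70.6. Neutrophil markers, 6 of 10 higher, summed to 610.1 to 707 against 478 to 601, and mast cell markers, 7 of 8 tested higher, to 138 to 201 against 84.9 to 94.7, with Mrgprb2 at 0 counts in the isotype libraries. Cardiomyocyte markers, 9 of 9 tested higher, summed to 40.4 to 47.2 against 6.43 to 16. Endothelial markers, 6 higher and 1 lower of 9 tested, summed to 51.7 to 65.4 against 151 to 219. This sum was lower although 8 of the 10 had a higher mean in the ICI libraries. The 1 marker called lower had a log2 fold change of -3.84. T cell markers summed to 22.2 to 32.9 against 5.38 to 7.32, mostly from Cd4 (mean 13.3 against 0.662) and Lck (11.1 against 3.21); of the 5 tested, 3 were higher, Trac was lower and Cd3e did not pass, and the means of Cd8a and Cd8b1 were lower. In RNA from such a bulk population, fewer cells of a type and less RNA per cell cannot be told apart. The part of these markers in the results below was not tested. Replicate 3 of each group had 2786 and 1844 counts of Xist and 6 and 130 counts of Y-linked genes, where the other 4 libraries had 3620 to 5821 Y-linked counts and 0 to 12 of Xist.

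Together the 54 genes took 3.32%, 3.03% and 3.18% of all counts in the ICI libraries and 4.87%, 4.59% and 4.73% in the isotype libraries. The ICI libraries all lay lower and the groups did not overlap. Most of this difference lay in the cathepsins and in the class of other hydrolases and activators. The most abundant gene of the second class was Psap, a precursor of activators and not itself an enzyme. Psap measured 3347, 3144 and 3109.8 normalized CPM in the ICI libraries and 9914, 7994 and 7878 in the isotype libraries. Genes of that class went in both directions, as given below. Cathepsins took 1.48% ± 0.074 (SD, n = 3) of counts in the ICI libraries and 2.42% ± 0.035 in the isotype libraries, and the other hydrolases took 1.14% ± 0.058 against 1.73% ± 0.11. The membrane proteins took 0.339% ± 0.011 against 0.339% ± 0.012, and the pump subunits 0.209% ± 0.0025 against 0.23% ± 0.0046. These shares are a description and carry no test. They are relative to library totals alone, whereas the calls per gene below use TMM factors. Those factors were 1.05 to 1.11 in the ICI libraries and 0.921 to 0.952 in the isotype libraries. An equal share, as for the membrane proteins, is therefore not an equal level on the TMM scale.

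**Figure D1:**
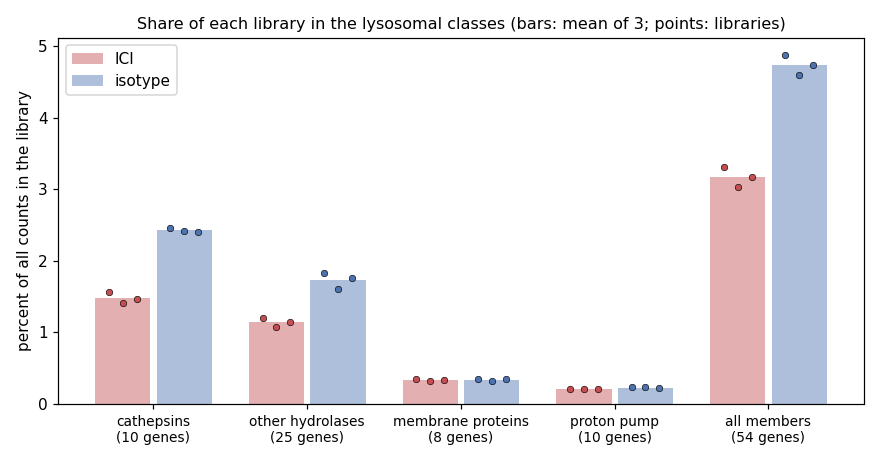
Percent of all counts of each library (vertical axis, from 0) taken by each class of lysosomal genes, with 1 point per library and bars at the group mean. The cathepsin and other hydrolase points of the 3 ICI libraries lie below those of the 3 isotype libraries, whereas the membrane proteins stand at 0.339% in both groups. Shares are of library totals, without TMM factors.

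Per gene, 10 of the 54 were higher in the ICI libraries, 26 were lower and 18 did not pass the test (edgeR quasi-likelihood test, Benjamini-Hochberg adjusted p under 0.05 over the 14575 genes tested). Against the background of the same comparison, in which 35.0% of all genes were called higher and 33.9% lower, the share of members called higher was 18.5% and the share called lower was 48.1%. Calls in either direction were made for 36 of the 54 and for 68.9% of all genes. More than 2-fold higher were 6 members, where 20.9% of all genes were, and more than 2-fold lower were 9, where 12.8% of all genes were. The groups overlapped for 15 members, and the 3 ICI libraries lay above the 3 isotype libraries for 10 and below them for 29. Over all genes, the groups did not overlap for 73.8%, with ICI above for 37.5% and below for 36.3%. The median log2 fold change was -0.22 over the members and 0.03 over all genes. With upper-quartile factors or library totals in place of TMM, the median over all genes rose to 0.21 and 0.23 and that over the members to -0.03 and -0.01. With upper-quartile factors 15 members were higher and 21 lower, beside 42.2% and 26.4% of all genes, and with library totals 16 were higher and 21 lower, beside 42.9% and 25.6%.

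**Figure D2:**
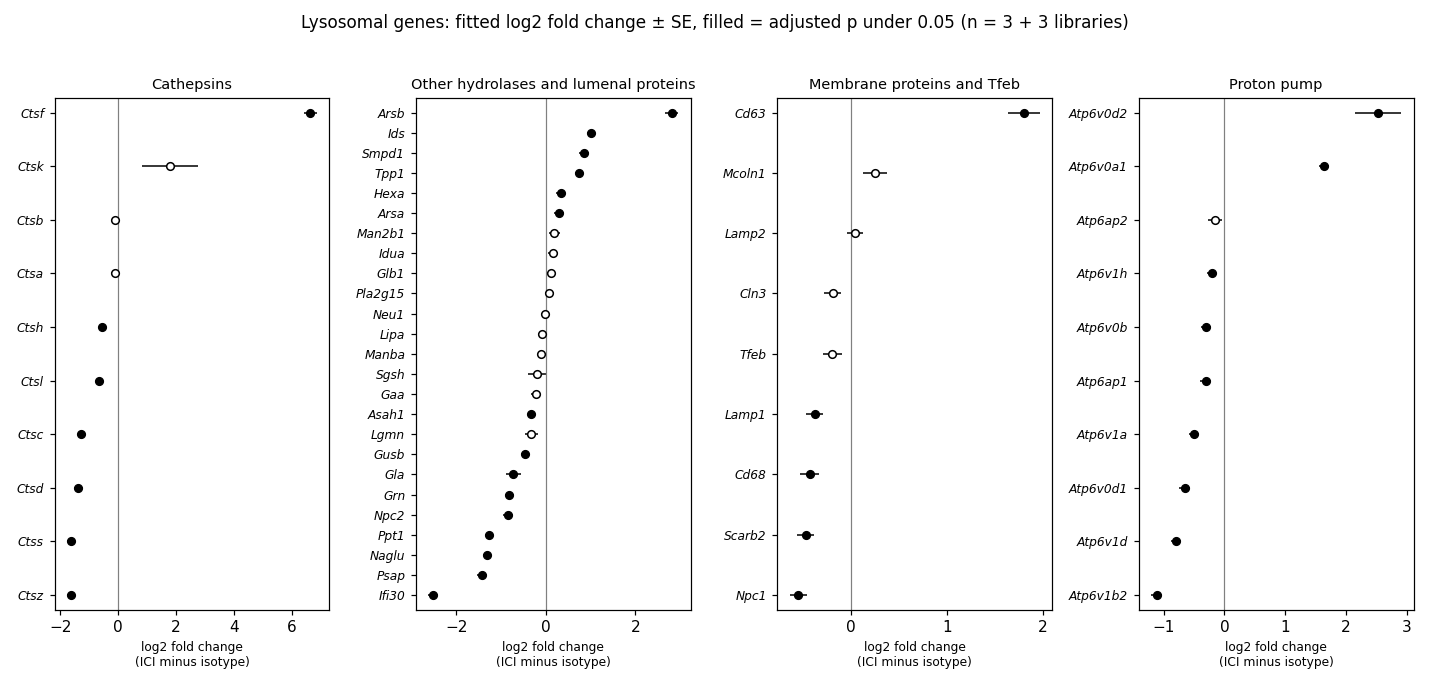
Log2 fold change, ICI minus isotype, of each of the 54 genes by class, with bars of 1 SE and filled points for an adjusted p under 0.05 (edgeR). Ctsf at 6.65 is the highest point and Ifi30 at -2.51 the lowest, and the V1 pump subunits all lie below 0.

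Promoter sequences are shown for the members that carry the 8-letter motif TCACGTGA, and for the members that rose and fell most. Windows of 250 bases before to 50 after the start of transcription (RefSeq, build GRCm38.p6) were found for 47 of the 54 members. The motif CACGTG, on either strand, was present in 18 of the 47 (38.3%) and in 8.09% of the 27025 genes with a window. The longer motif TCACGTG, which contains it, was in 16 (34.0%) against 4.29%, and TCACGTGA, which contains both, was in 8 (17.0%) against 1.12%. Stretches of 30 bases with TCACGTGA in capitals, on the strand of the gene, are given here for the 8 members that hold it. Ctsa and Gla each hold 2 such sites, of which 1 is shown.
Cln3 (chr7:126583340-126583369, - strand): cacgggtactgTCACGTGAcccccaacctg
Ctsd (chr7:142387908-142387937, - strand): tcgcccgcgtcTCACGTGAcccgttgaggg
Ctsa (chr2:164833749-164833778, + strand): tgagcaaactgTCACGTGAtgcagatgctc
Mcoln1 (chr8:3500462-3500491, + strand): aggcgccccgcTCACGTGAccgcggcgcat
Ifi30 (chr8:70766842-70766871, - strand): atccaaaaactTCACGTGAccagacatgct
Atp6v0d1 (chr8:105566050-105566079, - strand): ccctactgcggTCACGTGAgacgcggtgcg
Atp6v1a (chr16:44139373-44139402, - strand): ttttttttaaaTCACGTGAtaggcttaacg
Gla (chrX:134601215-134601244, - strand): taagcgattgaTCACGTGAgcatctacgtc

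The sequences differ in the bases around a shared core, and not all of the members with them passed the test. Of the 8, Ctsd, Ifi30, Gla, Atp6v0d1 and Atp6v1a were lower, Cln3, Ctsa and Mcoln1 did not pass the test, and none was higher. Of the 16 with TCACGTG, 1 was higher, 8 were lower and 7 did not pass. Of the 31 members whose window lacked it, 8 were higher, 13 lower and 10 did not pass. Over all members 18.5% were higher and 48.1% lower, and over all genes 35.0% and 33.9%. A link between the motif and the direction was not tested. A match is a description of these letters, not evidence of binding. The 250 bases before the start of Ctsf, the member with the highest fold change, and of Ifi30, the member with the lowest, each hold CACGTG (in capitals).
Ctsf (chr19:4854915-4855164, + strand): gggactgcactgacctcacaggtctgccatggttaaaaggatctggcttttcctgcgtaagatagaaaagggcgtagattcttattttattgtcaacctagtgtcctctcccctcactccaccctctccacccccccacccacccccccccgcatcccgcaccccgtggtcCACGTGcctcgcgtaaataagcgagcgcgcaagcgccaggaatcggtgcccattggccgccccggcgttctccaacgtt
Ifi30 (chr8:70766664-70766913, - strand): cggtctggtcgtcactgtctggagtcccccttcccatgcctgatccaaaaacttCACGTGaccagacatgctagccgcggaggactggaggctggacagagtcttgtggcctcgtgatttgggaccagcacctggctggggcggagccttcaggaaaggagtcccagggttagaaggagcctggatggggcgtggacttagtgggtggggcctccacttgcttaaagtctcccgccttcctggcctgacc
The core is thus found before genes that moved in opposite directions, and in Ctsf it lacks the T in front of it that makes TCACGTG.

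The cathepsins, the proteases that give the lysosome much of its capacity to digest proteins, split between 1 gene that was higher and 6 that were lower. These were 10% and 60% of the class, beside 35.0% and 33.9% of all genes. Ctsf, a cysteine protease that in mouse macrophages can trim the class II invariant chain and whose promoter is given above, measured 72.3, 54.9 and 68.7 normalized CPM in ICI replicates 1 to 3 and 0.367, 0.705 and 0.855 in isotype replicates 1 to 3. It was near 0 in every isotype library and expressed in every ICI library (log2 fold change 6.65, SE 0.22, adjusted p = 2.94e-08; 101-fold). The ratio rested on 4746 against 51 counts, with a 95% interval of 76.8 to 136 from counting error alone.

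Of the abundant cathepsins, 4 were lower by more than 2-fold. Ctsc, the dipeptidyl peptidase that activates granule serine proteases, measured 3849, 3868 and 3453 normalized CPM in the ICI libraries and 9223, 9639 and 8571 in the isotype libraries (log2 fold change -1.30, SE 0.10, adjusted p = 3.35e-06). Ctss, the protease that completes invariant chain removal in antigen-presenting cells, measured 1550.4, 1564 and 1187 against 4799, 4027 and 4563 (log2 fold change -1.64, SE 0.13, adjusted p = 3.26e-06). Ctsz, a carboxypeptidase, measured 654, 639 and 534 against 1983, 2051 and 1675 (log2 fold change -1.64, SE 0.12, adjusted p = 1.65e-06). For each of these genes the highest ICI library was below the lowest isotype library. Ctsd, the main aspartic protease of the lysosome, measured 1121, 834 and 1243 against 3011, 2754 and 2554 (log2 fold change -1.38, SE 0.15, adjusted p = 2.6e-05). Ctsl, a cysteine endopeptidase, measured 209, 166 and 185 against 328, 288 and 272 (log2 fold change -0.67, SE 0.11, adjusted p = 0.00036). Ctsh, an aminopeptidase, was also lower (log2 -0.55, adjusted p = 0.00121), and no library of either group crossed into the other for these genes.

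The remaining 3 cathepsins did not pass the test. Ctsb, a cysteine protease with both endo- and carboxypeptidase activity, measured 5861, 4984 and 5394 normalized CPM in the ICI libraries and 5673, 5943 and 5814 in the isotype libraries (log2 -0.10, adjusted p = 0.388). Ctsa, a carboxypeptidase that protects beta-galactosidase and neuraminidase in a complex, measured 905, 668 and 736 against 852, 781 and 887 (log2 -0.13, adjusted p = 0.364). The groups overlapped for both. Ctsk, the collagen-degrading cathepsin of osteoclasts, measured 5.72, 0.914 and 0.842 against 1.03, 0.749 and 0.376 (log2 fold change 1.80, SE 0.96, adjusted p = 0.146), on 180 against 56 counts. Its high value stood in ICI replicate 1 alone, and without that library its log2 fold change was 0.31. Ctsk was called by DESeq2 (adjusted p = 0.0148).

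Expressed per length of transcript, so that genes can be ranked within a library, the order of the cathepsins also differed. In the ICI libraries Ctsc was the highest, with a level of 3763 ± 102 TPM (SD, n = 3), followed by Ctsb at 2879 ± 232 and Ctss at 2660.0 ± 303; the levels of Ctsb and Ctss did not differ beyond their spread. In the isotype libraries Ctsc stood at 7336 ± 408 TPM and Ctss at 6585 ± 519. Ctsz at 2639.8 ± 254, Ctsd at 2605 ± 161 and Ctsb at 2451 ± 101 followed, within their spread of each other. Ctsf stood at 83.3 ± 12.5 TPM in the ICI libraries and Ctsl at 76.3 ± 8.28, within their spread. That order rests on the transcript length taken, 6168 bases for Ctsl and 1980 for Ctsf. In normalized CPM Ctsl was above Ctsf in the ICI libraries, with means of 187 against 65.3. Ctsf was the lowest of the 10 in the isotype libraries, at 0.653 ± 0.264 TPM. TPM is relative to the total of its own library, and these levels carry no test between groups.

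Among the other 25 hydrolases, activators and processing proteins, 6 were higher, 9 lower and 10 did not pass the test. These were 24% higher and 36% lower, beside 35.0% and 33.9% of all genes, so the lower share was near that of all genes. The median log2 fold change of the class was -0.09. Ifi30, the thiol reductase that opens disulfide bonds of antigens for class II presentation, measured 103, 117 and 92.8 normalized CPM in the ICI libraries and 639, 562 and 583 in the isotype libraries. All 3 ICI libraries were far below the isotype libraries (log2 fold change -2.51, SE 0.11, adjusted p = 7.87e-08; 5.71-fold lower). Of the other proteins of this kind, Ppt1, which removes palmitate from proteins, measured 381, 382 and 388 against 884, 1008 and 889.7 (log2 fold change -1.27, SE 0.09, adjusted p = 1.35e-06). Grn, the precursor of the granulins, was lower (log2 -0.81, adjusted p = 5e-05) and Tpp1, a tripeptidyl peptidase, was higher (log2 0.74, adjusted p = 6.93e-05). Lgmn, the asparaginyl endopeptidase, did not pass, with 1159, 924 and 1015 against 1222, 1096 and 1555 (log2 -0.32, adjusted p = 0.0635), and its groups overlapped. Lgmn was called lower by DESeq2 (adjusted p = 0.0454), without ICI replicate 1 (0.0427) and without isotype replicate 2 (0.0262).

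Among 4 enzymes that remove sulfate from glycans and lipids, 3 were higher and none was lower, beside 35.0% and 33.9% of all genes. Arsb, which acts on dermatan and chondroitin sulfate, measured 133, 112 and 129 normalized CPM in the ICI libraries and 14.8, 16.6 and 21.9 in the isotype libraries (log2 fold change 2.81, SE 0.15, adjusted p = 5.38e-07; 7.01-fold). Ids, the iduronate sulfatase, measured 175, 170.0 and 172 against 81.9, 84.8 and 90.17 (log2 fold change 1.01, SE 0.08, adjusted p = 2.52e-06). For both genes every ICI library lay above every isotype library. Arsa, which acts on sulfatide, was higher by a small amount (log2 0.30, adjusted p = 0.0256), a call that was lost without ICI replicate 1 or 3 or isotype replicate 1 or 2 (adjusted p = 0.102, 0.0525, 0.0831 and 0.0883). Sgsh, the sulfamidase of heparan sulfate, did not pass, with 23.7, 15.4 and 23.4 against 20.4, 21.8 and 29.4 (log2 -0.20, adjusted p = 0.4).

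Of the 10 glycosidases, 1 was higher, 3 were lower and 6 did not pass the test. These were 10% higher and 30% lower, beside 35.0% and 33.9% of all genes. Naglu, which acts on heparan sulfate, measured 48.7, 45.2 and 42.5 normalized CPM in the ICI libraries and 115, 105 and 119 in the isotype libraries (log2 fold change -1.31, SE 0.09, adjusted p = 1.33e-06), with no overlap. Gla, the alpha-galactosidase encoded on chromosome X, was lower (log2 -0.73, adjusted p = 0.00549), as was Gusb, the beta-glucuronidase (log2 -0.47, adjusted p = 0.000434), and Hexa, the alpha chain of hexosaminidase, was higher (log2 0.33, adjusted p = 0.011; adjusted p = 0.055 without isotype replicate 2). The 6 that did not pass had log2 fold changes between -0.22 and 0.19. Glb1, the beta-galactosidase, measured 72.3, 62.7 and 70.2 against 62.5, 57.4 and 68.8 (log2 0.12, adjusted p = 0.29). Gaa, the acid alpha-glucosidase that degrades glycogen, measured 89.3, 73.1 and 84.7 against 89.9, 105 and 92.7 (log2 -0.22, adjusted p = 0.0743). Neu1, the neuraminidase, measured 120.0, 99.9 and 116 against 118, 115 and 105 (log2 -0.01, adjusted p = 0.926). The groups overlapped for Glb1 and Neu1, and for Gaa the highest ICI library lay just under the lowest isotype library. Man2b1, an alpha-mannosidase, measured 866, 719 and 716 against 656, 589 and 768 (log2 0.19, adjusted p = 0.177). Manba, the beta-mannosidase, measured 90.9, 83.2 and 88.6 against 92.5, 89 and 99 (log2 -0.09, adjusted p = 0.32). Idua, the iduronidase, measured 66, 52.2 and 66.3 against 50.9, 55.3 and 58.1 (log2 0.17, adjusted p = 0.2; adjusted p = 0.0294 without ICI replicate 2). None of these 3 separated the groups.

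Of the 6 enzymes and carriers of lipids, 1 was higher, 3 were lower and 2 did not pass. These were 16.7% higher and 50% lower, beside 35.0% and 33.9% of all genes. Psap, the precursor of the saposins that help enzymes reach sphingolipids, measured 3347, 3144 and 3109.8 normalized CPM in the ICI libraries and 9914, 7994 and 7878 in the isotype libraries (log2 fold change -1.43, SE 0.12, adjusted p = 4.13e-06). Npc2, which hands cholesterol to Npc1, measured 350.4, 326 and 298 against 607, 516 and 628 (log2 fold change -0.84, SE 0.10, adjusted p = 5.32e-05). Smpd1, the acid sphingomyelinase, went the other way, with 52.6, 42.1 and 50.2 against 26.8, 24.3 and 28.9 (log2 fold change 0.86, SE 0.11, adjusted p = 8.18e-05). In each of these genes the groups stood apart. Asah1, the acid ceramidase, was lower (log2 -0.32, adjusted p = 0.0064), but did not pass with upper-quartile factors or library totals. Lipa, the acid lipase that frees cholesterol from its esters, measured 253, 235 and 255 against 257, 233 and 296 (log2 -0.08, adjusted p = 0.492), and Pla2g15, a phospholipase, measured 209.6, 173 and 169.8 against 170.3, 162 and 189 (log2 0.08, adjusted p = 0.51); both overlapped.

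**Figure D3:**
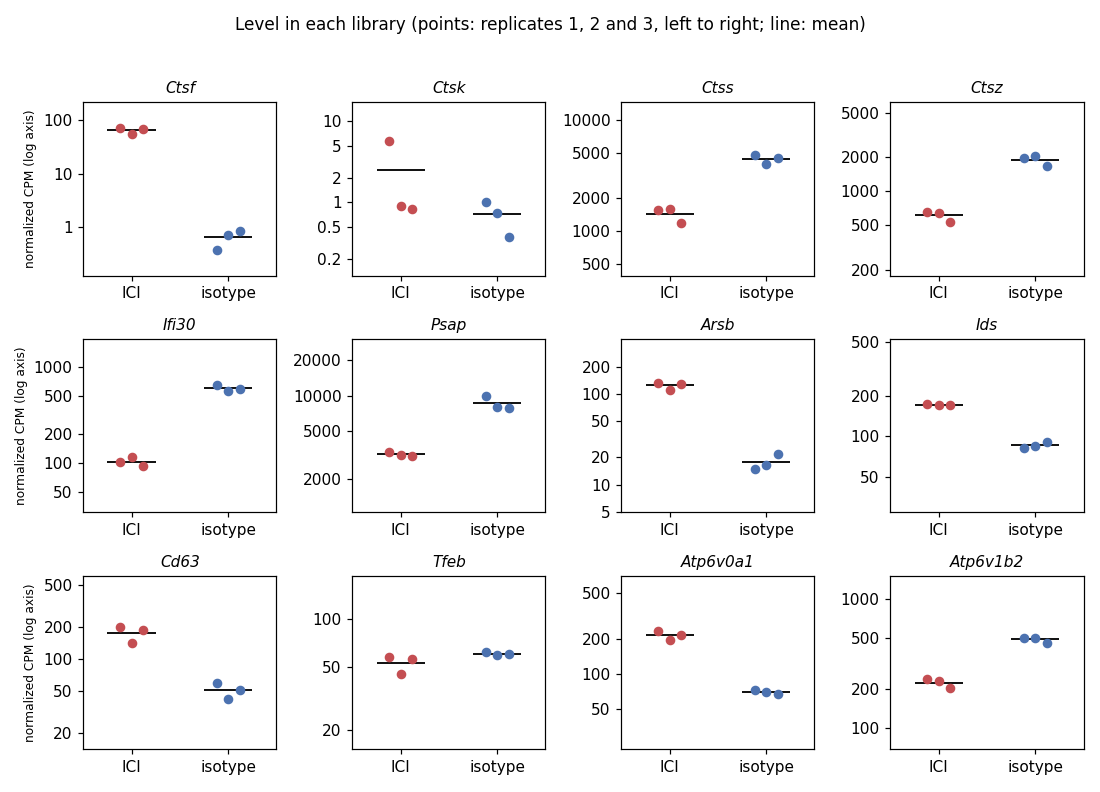
Normalized CPM of selected lysosomal genes in each library on a log axis, with 1 point per library for the 3 ICI and 3 isotype libraries and a line at the mean. Ctsf lies between 54.9 and 72.3 in the ICI libraries and below 1 in the isotype libraries, while the points of Ctsk overlap between the groups apart from ICI replicate 1.

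The 8 membrane proteins were 1 higher, 4 lower and 3 that did not pass the test. These were 12.5% higher and 50% lower, beside 35.0% and 33.9% of all genes. Cd63, a tetraspanin of late endosomes and secretory granules, measured 201, 142 and 188 normalized CPM in the ICI libraries and 59.9, 42 and 50.8 in the isotype libraries (log2 fold change 1.80, SE 0.17, adjusted p = 2.76e-05; 3.47-fold). It was the only member of this class to change by more than 2-fold. Npc1, the cholesterol exporter, measured 57.6, 48.8 and 56.5 against 81.9, 79.5 and 77.1 (log2 fold change -0.55, SE 0.09, adjusted p = 0.000359). Scarb2, the receptor that carries glucocerebrosidase to the lysosome, measured 125, 116 and 116 against 170.2, 151 and 175 (log2 fold change -0.47, SE 0.09, adjusted p = 0.000724). Cd68, a heavily glycosylated membrane protein that is also one of the macrophage markers above, measured 605, 517 and 503 against 767, 714 and 711 (log2 fold change -0.43, SE 0.10, adjusted p = 0.00263; adjusted p = 0.553 once a trend with transcript length was removed). Each ICI library lay below each isotype library for these 3. Lamp1, a major glycoprotein of the membrane, was lower by a small amount (log2 -0.38, adjusted p = 0.00331) and did not pass with upper-quartile factors or library totals, whereas Lamp2, its relative, measured 889, 946 and 892 against 861, 888 and 898 (log2 0.04, adjusted p = 0.655). Cln3, a membrane protein lost in juvenile Batten disease, measured 51, 46.3 and 55 against 60.2, 58.7 and 55.1 (log2 -0.19, adjusted p = 0.0837). Mcoln1, the calcium channel whose opening can activate TFEB, measured 88.1, 62.9 and 84.3 against 70, 65.8 and 62.5 (log2 0.25, adjusted p = 0.104; adjusted p = 0.00448 without ICI replicate 2). Lamp2 and Mcoln1 overlapped between groups and Cln3 came close to doing so.

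Tfeb, the factor that drives many of these genes, measured 57.4, 45.4 and 56.1 normalized CPM in the ICI libraries and 62.2, 59.8 and 60.1 in the isotype libraries. Its log2 fold change of -0.20 did not pass the test (adjusted p = 0.109), although the 3 ICI libraries lay lower. Among its relatives, named after their values were seen, Tfe3 was 1.21-fold higher (adjusted p = 0.0126), Tfec was 1.77-fold lower (adjusted p = 0.000261) and Mitf did not pass (adjusted p = 0.678).

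Of the 10 pump subunits, 2 were higher, 7 were lower and 1 did not pass the test. These were 20% higher and 70% lower, beside 35.0% and 33.9% of all genes. Both pump subunits that were higher belong to the V0 sector. Atp6v0a1, a form of the large a subunit, measured 233, 197 and 217 normalized CPM in the ICI libraries and 72, 69.3 and 66.4 in the isotype libraries (log2 fold change 1.64, SE 0.09, adjusted p = 3.24e-07; 3.11-fold). Atp6v0d2, the form of the d subunit known from osteoclasts and macrophages, measured 4.14, 4.61 and 4.67 against 1.39, 0.661 and 0.274 (log2 fold change 2.53, SE 0.38, adjusted p = 0.000246; 5.76-fold). It was a rare transcript in every library, and the ratio rested on 326 against 61 counts with a 95% interval of 4.41 to 7.76 from counting error alone. Without isotype replicate 1, the highest of its group, the log2 fold change was 3.29. Atp6v0d1, the widely expressed d subunit, moved the other way, with 133, 131 and 128 against 215, 219 and 182 (log2 fold change -0.65, SE 0.09, adjusted p = 0.000125).

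All 4 V1 subunits in the list were lower, where 33.9% of all genes were. Atp6v1b2, a B subunit of the ATP-hydrolysing head, measured 240.1, 229.5 and 204 normalized CPM in the ICI libraries and 501, 500.3 and 458 in the isotype libraries (log2 fold change -1.11, SE 0.09, adjusted p = 3.79e-06). Atp6v1d, of the central stalk, measured 53.7, 51.9 and 50.7 against 89.5, 86.9 and 95.6 (log2 fold change -0.80, SE 0.08, adjusted p = 1.41e-05), and Atp6v1a, the catalytic A subunit, measured 200.1, 216 and 207 against 286, 312 and 282 (log2 fold change -0.50, SE 0.08, adjusted p = 0.000373). The groups did not overlap for any of them. Atp6v1h, a regulatory subunit, was lower by the least (log2 -0.21, adjusted p = 0.0343), and without any library other than isotype replicate 3 its adjusted p was 0.0716 to 0.101. Atp6v0b, of the proton-carrying ring, was lower too (log2 -0.30, adjusted p = 0.0105). The accessory subunit Atp6ap1 measured 498, 428 and 449 against 589, 585 and 529 (log2 fold change -0.31, SE 0.09, adjusted p = 0.0126), and Atp6ap2 measured 282, 388 and 351 against 365, 389.6 and 388 (log2 -0.16, adjusted p = 0.228). Calls of Atp6v0b, Atp6v1h and Atp6ap1 were lost with upper-quartile factors and with library totals, that of Atp6ap1 also without ICI replicate 2 (adjusted p = 0.0507), and Atp6v0b had a log2 fold change of 0.17 once a trend with transcript length was removed.

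Several pump subunits come in forms encoded by different genes, and the make-up of the a subunit differed between the groups. Per length of transcript, Atp6v0a1 made up 45.4%, 43.0% and 48.3% of a subunit transcripts in the ICI libraries and 8.44%, 8.66% and 8.68% in the isotype libraries. Tcirg1, the form required by osteoclasts, made up 39.4% ± 2.64 (SD, n = 3) against 68.9% ± 1.90, and Atp6v0a2 made up 15.1% ± 0.318 against 22.5% ± 1.80. In counts, Tcirg1 was 2.98-fold lower (adjusted p = 1.18e-06, edgeR) and Atp6v0a2 was 2.54-fold lower (adjusted p = 6.01e-07), so the forms of 1 subunit went in opposite directions. Atp6v0d2 remained a minor form, at 2.15% ± 0.174 of d subunit transcripts against 0.235% ± 0.163. Atp6v0e2, named after its values were seen, had 20, 34 and 23 counts in the ICI libraries and 0, 1 and 3 in the isotype libraries (adjusted p = 6.64e-05).

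**Figure D4:**
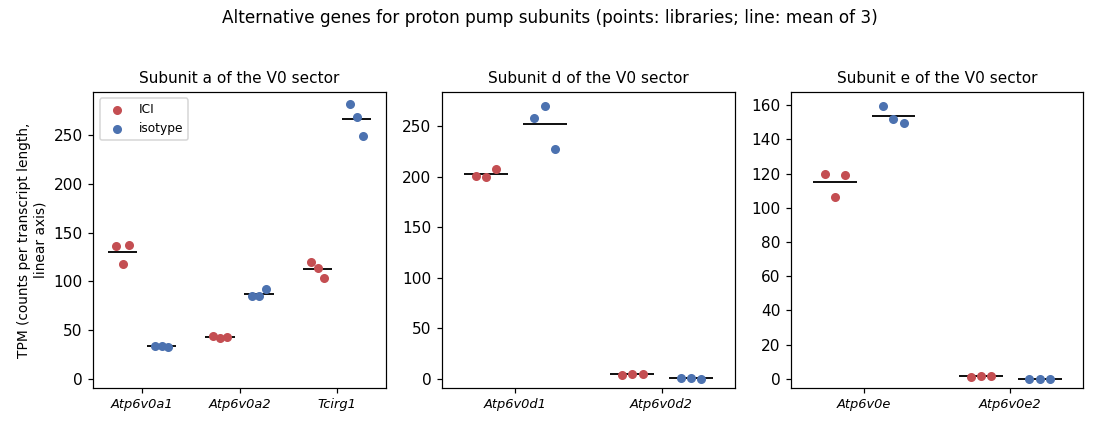
TPM (linear axis) of the genes that encode alternative forms of the a, d and e subunits of the V0 sector, with 1 point per library and a line at the mean of each group of 3. Atp6v0a1 lies at a mean of 131 in the ICI libraries and 33.3 in the isotype libraries, whereas Tcirg1 lies at 113 and 267, and Atp6v0d2 and Atp6v0e2 stay near 0 beside their partners.

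Other genes of the pathway were read from lists chosen by role, with earlier results of these data known. Their counts stand beside the 35.0% of all genes called higher and 33.9% called lower. Of 34 further hydrolases and activators tested, 8 were higher and 17 lower, with a median log2 fold change of -0.28; the smallest p-values belonged to Ppt2, a relative of Ppt1 (log2 -1.93, adjusted p = 1.47e-07), Galns, a sulfatase of keratan sulfate (log2 -1.76, adjusted p = 1.73e-07), and Smpdl3a, a relative of Smpd1 (log2 -1.26, adjusted p = 2.13e-06). Galns was thus lower while Arsb, Ids and Arsa were higher. Of 14 further pump genes tested, which include the assembly factors Vma21, Tmem199 and Ccdc115, 11 were lower and 3 were higher (median -0.76). The higher genes, named after their values were seen, were the subunit genes Atp6v0e2 and Atp6v1g2 and the assembly factor Vma21. Atp6v1f of the V1 sector was among the lower (log2 -0.83, adjusted p = 1.34e-05), as were Tmem199 and Ccdc115. Of 6 inhibitors of cathepsins and related proteases tested, 2 were higher, 3 were lower and 1 did not pass. Serpinb6a (119.6, 102 and 118 against 5.98, 6.35 and 7.97 normalized CPM; 16.7-fold, adjusted p = 1.46e-08) and Serpinb1a (16.2-fold, adjusted p = 3.36e-07), inhibitors of serine proteases inside cells, were the higher genes. Cstb, the cytosolic cystatin B, was 3.48-fold lower (adjusted p = 1.17e-06).

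Of 33 further membrane proteins and transporters tested, 6 were higher and 14 lower, with a median log2 fold change of -0.16. Clcn7, the chloride-proton exchanger, measured 91.2, 81.3 and 78.9 normalized CPM in the ICI libraries and 541, 599.8 and 453 in the isotype libraries (6.34-fold lower, adjusted p = 1.03e-07). Slc11a1, the metal transporter of phagosomes, was 2.64-fold lower and Mfsd12, needed for cystine uptake into lysosomes and melanosomes, 2.91-fold lower (adjusted p = 6.18e-07 and 7.37e-07). Of 19 tested genes of the MiT/TFE factors and the mTORC1 machinery on lysosomes, 4 were higher and 9 lower (median -0.31), among them Lamtor5 and Lamtor2 of the Ragulator scaffold (log2 -1.08, adjusted p = 2.66e-06; log2 -1.04, adjusted p = 2.71e-05) and Fnip2 (log2 -0.98, adjusted p = 3.56e-05).

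Delivery genes, which tag hydrolases with mannose phosphate and carry them to the lysosome, numbered 19, of which 11 were lower and 1, the adaptor Gga3, was higher (log2 0.32, adjusted p = 0.00798), with a median of -0.36. Against a 1.5-fold change, 3 of the 19 were lower, beside 16.5% of all genes. Igf2r, the large mannose phosphate receptor, measured 11.6, 9.14 and 15.4 normalized CPM in the ICI libraries and 119, 125 and 97.3 in the isotype libraries (9.45-fold lower, adjusted p = 2.82e-06). Gnptab, which builds the tag, was 2.89-fold lower and M6pr, the small receptor, 2.45-fold lower (adjusted p = 1.93e-06 and 3.88e-06). All 3 separated the groups.

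Spread within the groups was small for most members. The median coefficient of variation of normalized CPM was 8.71% in the ICI libraries and 6.64% in the isotype libraries, and it was under 10% for 31 and 41 of the 54 genes. The widest spreads belonged to Ctsk in the ICI libraries, at 112%, and Atp6v0d2 in the isotype libraries, at 73.3%, both with few counts. Of the 36 members called, 20 kept their call and direction under all 20 alternatives tried, 8 of them higher and 12 lower. The alternatives include a test against a 1.5-fold change, which small changes fail by design. That test alone removed the call of 16 members, so the count of 20 reflects the size of the changes. Over all genes, 37.9% were called against a 1.5-fold change.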

How the data were processed

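Per the labels' protocols, a SMART-seq kit was used and the libraries do not record strand, so reads of genes that overlap on opposite strands are mixed. The deposited table holds the authors' raw counts per Ensembl gene, 57010 genes by 6 libraries. STAR 2.7.10a, Salmon 1.10.1 and the build GRCm39 are named in the submitters' processing notes, without their roles; no source used here gives the annotation, strand setting or filters. Symbols were matched for 91.3% of identifiers.

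From the counts, edgeR 4.0.16 (R 4.3.3) was run over the whole table: filterByExpr with a minimum count of 10, TMM factors, the quasi-likelihood F test with robust fit and Benjamini-Hochberg adjustment over the 14575 genes tested. Calls had an adjusted p under 0.05. Normalized CPM used the same factors. TPM used the length of the principal transcript, the longest if several, in a GRCm38 annotation. That is not the authors' build, so only names and lengths came from it. Intervals of count ratios cover counting error only. Motifs were searched on both strands of RefSeq windows (GRCm38.p6). The fit was tested on simulated counts in which a small set of genes changed, in both directions alike. In these data 68.9% of genes were called, so that test does not bear on the choice of scaling.

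Per-library values were given for the called members with the largest fold changes in each class (6 cathepsins, 8 other hydrolases, 4 membrane proteins, 6 pump subunits, at least 10 CPM and no overlap), for every uncalled member, and always for Tfeb, Ctss, Ifi30, Ctsk, Ctsl, Atp6v0d1 and Atp6v0d2. Of each other list, up to 3 genes with the smallest p were named. The members and all lists were chosen with earlier results of these data known. P-values measure the spread between libraries labelled as biological replicates; depth was 21528274 to 30736316 counts. The 20 alternatives included DESeq2 1.42.0 and limma 3.58.1 (voom), other scalings and filters, a term for the Xist and Y-linked pattern and each library left out. The labels give all 6 libraries the same batch. Same-numbered libraries of the groups deviated together only weakly (correlations 0.0345, 0.0619 and 0.128). This does not exclude a pairing, and the main fit did not use one.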

Additional observations from a re-analysis of the deposited data

How the results depend on the processing

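Members called in either direction numbered 36, beside 68.9% of all genes tested. With 1 library left out they numbered 34 to 36, beside 60.2% to 65.6%. No filter gave 35 (41.0% of all genes), limma-voom 36 (68.6%) and DESeq2 37 (65.9%). Higher were 10, and 8 to 12 with 1 library left out, beside 35.0% and 30.5% to 33.6% of all genes. Lower were 26, and 24 to 26 with 1 library left out, beside 33.9% and 29.7% to 32.2%. With library totals 16 were higher and with upper-quartile factors 15, beside 42.9% and 42.2%. Tested against a 1.5-fold change, 20 were called and 12 were lower, beside 37.9% and 16.5% of all genes. Calls of Lamp1, Asah1, Atp6ap1, Atp6v0b and Atp6v1h were lost with upper-quartile factors and library totals; Cd68 was lost with a length trend removed (adjusted p = 0.553) and Hexa without isotype replicate 2 (adjusted p = 0.055). Under that length correction Atp6v0b had a log2 fold change of 0.17, the only called member to change sign. Uncalled members changed sign as follows (log2 fold change). With upper-quartile factors, Ctsa was 0.055, Ctsb 0.079, Neu1 0.17, Manba 0.087, Lipa 0.0998 and Atp6ap2 0.018. With library totals, Ctsa was 0.075, Ctsb 0.10, Neu1 0.19, Manba 0.11, Lipa 0.12, Atp6ap2 0.042, Sgsh 0.0033, Cln3 0.013 and Tfeb 0.0077. With the strict filter, Neu1 was 0.076 and Lipa 0.0044. Neu1 was 0.0091 with genes of other cells left out, 0.0075 with the length trend removed, and -0.078 to 0.069 with 1 library left out, above 0 without ICI replicate 2 and without isotype replicate 1. Lamp2 was -0.035 with the length trend removed. Pla2g15 was -0.023 to 0.14 with 1 library left out, below 0 without ICI replicate 1. Of the 18 uncalled members, 11 were called under some alternative: Ctsb, Ctsk, Lgmn, Glb1, Gaa, Man2b1, Idua, Pla2g15, Lamp2, Cln3 and Mcoln1. Against a 1.5-fold change the other lists gave, as called, higher and lower, 12, 3 and 9 for hydrolases, 8, 2 and 6 for membrane proteins, 5, 0 and 5 for MiT/TFE and mTORC1 genes and 3, 0 and 3 for delivery genes; 3 inhibitors were called and 1 was lower, and 9 pump genes were called and 1 was higher. Over all genes that test called 37.9%, with 21.3% higher and 16.5% lower. With the length trend removed 1 inhibitor was lower and 0 delivery genes were higher, beside 33.4% and 33.5% of all genes. Further pump genes higher were 1 with the strict filter and 1 to 2 with 1 library left out. Further membrane proteins higher were 12 with either other scaling. MiT/TFE and mTORC1 genes higher were 2 to 5 with 1 library left out. Delivery genes higher were 3 with either other scaling and 2 with the strict filter. Of all genes, 42.2% were higher with upper-quartile factors and 42.9% with library totals. With the strict filter 35.5% were higher, and with 1 library left out 30.5% to 33.6%. The cause of the shifts between settings was not tested. With a replicate block 38 members were called, 11 higher and 27 lower, beside 68.5%, 34.8% and 33.7% of all genes. Ctsk (adjusted p = 0.0107) and Lgmn (0.0418) were added. Correlations were 0.0345, 0.0619 and 0.128 between same-numbered libraries of the groups and -0.136 to 0.0901 between the others. Replicate 3 of each group was the library high in Xist. Whether the numbers pair the libraries cannot be told from this. Transcripts with few counts, Ctsk, Atp6v0d2 and isotype Ctsf, are limited by depth.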
